A study of Macaca fascicularis with 22 samples.

Results

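Collagen chains are modified before and after they leave the cell, and the genes described here encode enzymes and a chaperone of that route. Prolyl 4-hydroxylases and lysyl hydroxylases act on collagen chains in the endoplasmic reticulum, where the chaperone SERPINH1 binds the folded triple helix, and lysyl oxidases crosslink collagen and elastin outside the cell. These genes are known for their high expression in fibroblasts and other cells that lay down matrix. Probes were chosen by the human RefSeq accession under which the array lists them. The rule uses no measured value, but the genes were chosen with earlier results of these data known. The PLOD2 accession was taken from the study's own list of genes changed with birth weight, which also holds P4HA1. A birth weight difference of either is thus not independent of that list. Of 10 genes searched, 6 were on the array of 19376 accessions, each as 1 probe printed in 2 spots: P4HA1 (NM_000917), P4HA2 (NM_004199), PLOD2 (NM_182943), SERPINH1 (NM_001235), LOX (NM_002317) and LOXL2 (NM_002318). The accessions of PLOD1 (NM_000302), PLOD3 (NM_001084), P4HB (NM_000918) and LOXL1 (NM_005576) and the other PLOD2 accession (NM_000935) were not found, and these were not analysed here. All 6 probes passed the filter on dim signals, 5 of them well above background on all 22 arrays and LOX only through the arrays labelled liver, where it is high. LOX is therefore left out of the medians and of the counts over 5 genes below unless it is named. Counts over 6 genes include LOX, which was rarely measured outside labelled liver.

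RNA from female neonates of the cynomolgus macaque (Macaca fascicularis) was measured on 22 single-colour rhesus arrays. The neonates of low birth weight (LBW) lay between the 5 and 25 centile of weight and those of average birth weight (ABW) between the 50 and 75 centile, all, by the study's methods, of 1 sire. Skeletal muscle and umbilical cord had 4 arrays in each birth weight group and liver had 3. The labels place sampling at birth, while the methods place the liver and muscle samples some days later in the same neonates, and arrays could not be tied to animals, so that p-values measure the spread between arrays. The question asked was whether expression of these genes differed with birth weight in any tissue.

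The tissue labels were checked against marker genes first. On all 8 arrays labelled umbilical cord, all 18 hepatocyte probes, among them LIPC, TAT and CP, lay above every other array. On the 6 arrays labelled liver, 8 of these 18 probes never rose well above background, while all 5 stroma and fibroblast probes, among them LUM and FN1, had their highest mean. The summed level of the hepatocyte list, in log2 units over the 75th percentile of the array, was 10.49 to 11.97 on the arrays labelled umbilical cord, -0.45 to 0.63 on those labelled liver and -1.31 to 5.26 in skeletal muscle. All 11 skeletal muscle probes were highest in skeletal muscle. The labels of liver and cord thus go against these markers, and the arrays are called labelled liver and labelled umbilical cord throughout. The 75th percentile signal was 315 to 2390 over the arrays, with 14594 to 17887 probes well above background. Each muscle group lay on a slide of its own, and the LBW arrays labelled umbilical cord lay on slide 5 while the ABW ones lay on slides 4 and 6, so in both a slide effect cannot be told apart from birth weight. In labelled liver the 3 ABW arrays and 1 LBW array lay on slide 3 and the other LBW arrays on slide 4. Slide and birth weight were thus partly mixed there as well. No array of another tissue label shared a slide with skeletal muscle, so a slide effect cannot be told apart from its differences to the other labels either. Slide 6 also had another scan day and software version.

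Levels below are log2 of the probe's processed signal over the 75th percentile signal of its array, so that a level of 0 equals that percentile. They compare arrays for 1 probe, not probes with each other. The 5 genes measured on every array were highest on the arrays labelled liver, and for each of the 5 every array labelled liver lay above every other array. The share of all 17117 probes tested with that pattern was 10.3%. At an adjusted p under 0.05 all 5 were lower in skeletal muscle than on the arrays labelled liver, and all 5 were lower in labelled umbilical cord, where 28.1% and 31.3% of all probes were higher on the arrays labelled liver. The median difference of the 5 was -2.84 for skeletal muscle minus labelled liver and -3.92 for labelled umbilical cord minus labelled liver, against 0.21 and 0.13 over all probes tested. With LOX added at its bound, given below, these medians were -3.10 and -3.97. In bulk samples fewer cells of a type and less RNA per cell cannot be told apart. Summed levels of 4 marker lists of other cell types were also highest or nearly so on the arrays labelled liver. The summed level of the 5 stroma and fibroblast probes was 7.34 to 7.89 there, 5.11 to 6.31 in labelled umbilical cord and 2.82 to 4.37 in skeletal muscle. A sum weighs bright probes most, and most of these probes ran the other way between the last pair. Taken singly, 4 of the 5 were called higher in skeletal muscle than in labelled umbilical cord, the direction of P4HA2, SERPINH1 and LOXL2 below. The remaining 1 was lower (-4.32), the median was 1.49, and of all probes 35.8% were higher and 29.1% lower. The smooth muscle list (4 probes) summed to 9.08 to 9.40 in labelled liver, 7.89 to 8.69 in skeletal muscle and 3.40 to 7.51 in labelled umbilical cord. Of its single probes, 3 of the 4 were called lower in skeletal muscle than in labelled liver (median -5.88). The remaining 1 was not called (0.53) and had its highest mean in skeletal muscle. All 4 were called lower in labelled umbilical cord than in labelled liver (median -6.64). For the erythroid list (5 probes) the sums were 6.95 to 9.60 in labelled liver, 3.85 to 7.21 in labelled umbilical cord and 1.78 to 5.92 in skeletal muscle. The endothelium list (5 probes) summed to 5.69 to 6.57, 1.39 to 3.47 and 3.22 to 4.11 in the same order. Its single probes were mixed, and 3 of the 5 had their highest mean on the arrays labelled liver. Against labelled liver, 2 of the 5 were called lower in skeletal muscle (median -0.002) and 3 in labelled umbilical cord (median -2.02), and the others were not called. The part of these lists in the result was not tested.

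**Figure D1:**
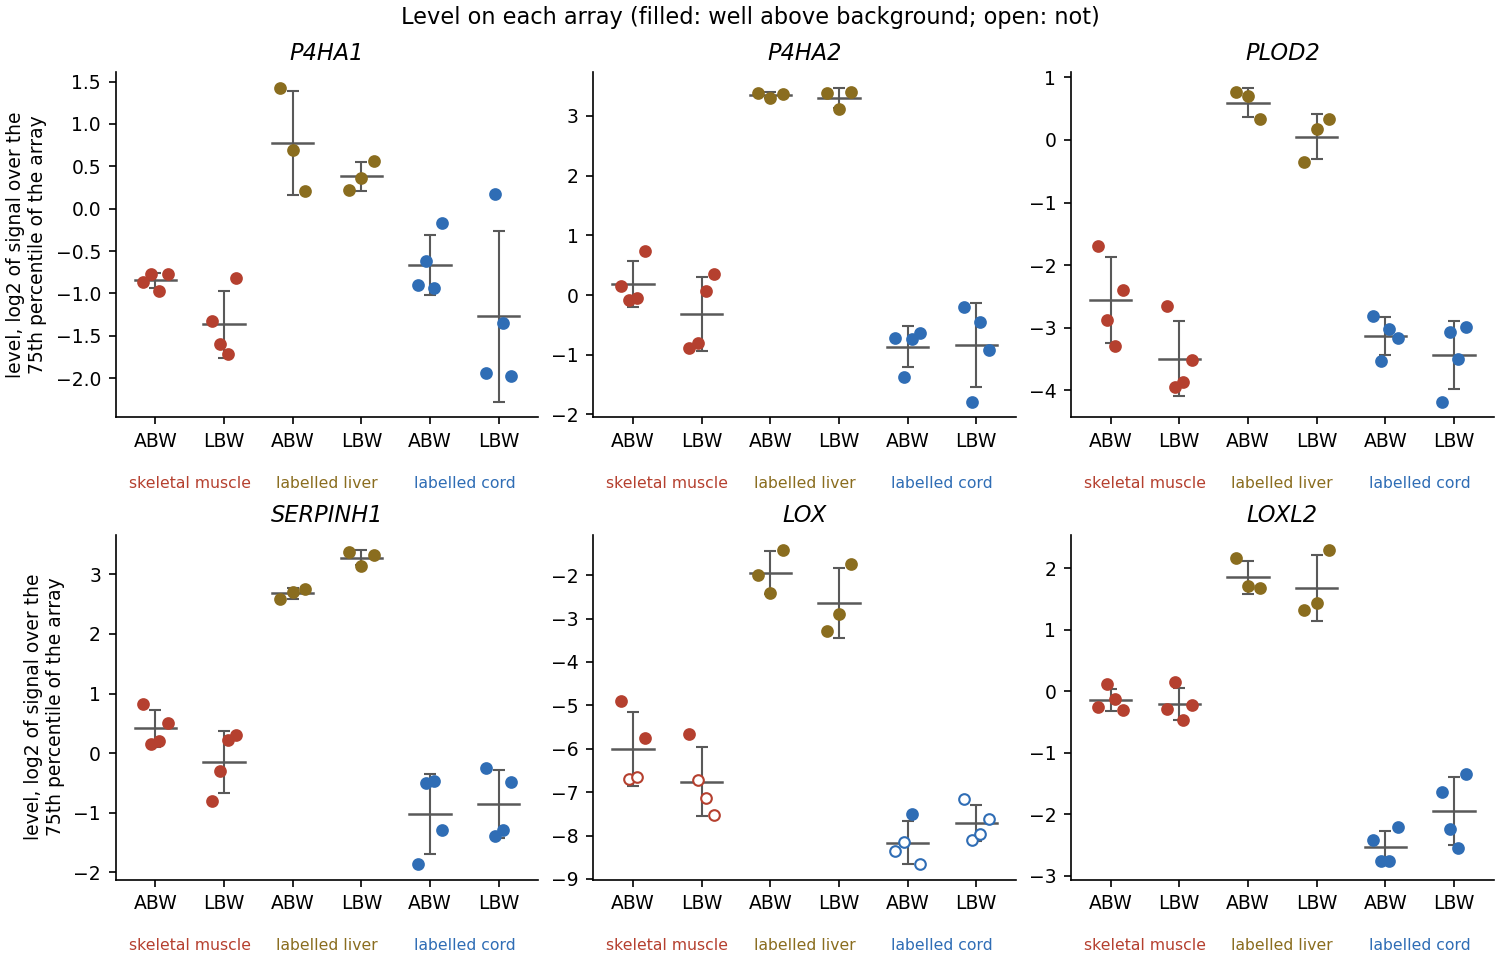
Level of each gene on each of the 22 arrays, as log2 of the signal over the array's 75th percentile, by tissue label and birth weight. Points are arrays, filled where the probe was well above background and open where it was not, with the group mean as a line and the SD as a bar. The arrays labelled liver lie above all others in every panel, and most LOX points in skeletal muscle and labelled cord are open.

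The prolyl 4-hydroxylase subunits P4HA1 and P4HA2 are catalytic alpha chains, alternative partners of the same beta chain in the enzyme that hydroxylates proline. P4HA1 showed the smallest differences of the 6 genes from the arrays labelled liver. Its levels on the labelled liver arrays were 1.43, 0.69 and 0.21 in ABW and 0.22, 0.36 and 0.56 in LBW. In skeletal muscle P4HA1 was at -0.86, -0.77, -0.97 and -0.77 in ABW and at -1.32, -1.60, -1.71 and -0.82 in LBW. In labelled umbilical cord it was at -0.90, -0.62, -0.94 and -0.17 in ABW and at -1.94, 0.18, -1.34 and -1.97 in LBW. The ABW muscle arrays were close together, and 1 LBW array labelled umbilical cord came close to the lowest labelled liver array. P4HA1 was 3.21-fold lower in skeletal muscle than on the arrays labelled liver (log2 difference -1.68, SE 0.28, adjusted p = 2.91e-05) and 2.91-fold lower on the arrays labelled umbilical cord (-1.54, SE 0.28, adjusted p = 7.36e-05). Skeletal muscle and labelled umbilical cord were not called different (-0.14, 95% confidence interval -0.69 to 0.41, adjusted p = 0.657), but with scaling to the spike-in controls P4HA1 was lower in skeletal muscle (-1.33, adjusted p = 0.0269). With the same scaling the difference of labelled umbilical cord minus labelled liver was -1.10 and no longer passed (adjusted p = 0.116).

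P4HA2 had the tightest levels on the arrays labelled liver, 3.39, 3.30 and 3.37 in ABW and 3.39, 3.11 and 3.40 in LBW. In skeletal muscle P4HA2 was at 0.15, -0.09, -0.05 and 0.73 in ABW and at -0.88, -0.80, 0.07 and 0.36 in LBW. In labelled umbilical cord it was at -0.72, -1.37, -0.74 and -0.63 in ABW and at -0.19, -1.79, -0.46 and -0.92 in LBW. The muscle and labelled cord arrays overlapped with each other and stayed far below labelled liver. P4HA2 was 10.5-fold lower in skeletal muscle than on the arrays labelled liver (-3.39, SE 0.25, adjusted p = 2.81e-10) and 18.2-fold lower on the arrays labelled umbilical cord (-4.18, SE 0.25, adjusted p = 6.76e-12). Whether the folds of the 2 chains differ was not tested.

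PLOD2 encodes a lysyl hydroxylase that acts on the ends of collagen chains, which sets the kind of crosslink formed later. PLOD2 was at 0.76, 0.70 and 0.33 on the ABW arrays labelled liver and at -0.35, 0.17 and 0.34 on the LBW ones. In skeletal muscle the levels were -1.69, -2.87, -3.29 and -2.40 in ABW and -2.65, -3.94, -3.87 and -3.51 in LBW. In labelled umbilical cord they were -2.82, -3.53, -3.02 and -3.16 in ABW and -4.18, -3.08, -3.49 and -2.99 in LBW. Skeletal muscle and labelled umbilical cord spanned much the same range. PLOD2 was 10.2-fold lower in skeletal muscle (-3.35, SE 0.26, adjusted p = 8.44e-10) and 12.2-fold lower on the arrays labelled umbilical cord (-3.61, SE 0.26, adjusted p = 1.89e-10) than on the arrays labelled liver. Skeletal muscle minus labelled umbilical cord was 0.26 (95% confidence interval -0.25 to 0.77, adjusted p = 0.367), so the order of these neighbours was not resolved.

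SERPINH1, the collagen chaperone of the endoplasmic reticulum, was at 2.58, 2.71 and 2.76 on the ABW arrays labelled liver and at 3.37, 3.14 and 3.33 on the LBW ones. In skeletal muscle SERPINH1 was at 0.82, 0.15, 0.20 and 0.51 in ABW and at -0.81, -0.30, 0.22 and 0.31 in LBW. Labelled umbilical cord gave -1.86, -0.49, -0.47 and -1.29 in ABW and -0.24, -1.40, -1.29 and -0.48 in LBW. The levels thus ran from labelled liver through skeletal muscle to labelled umbilical cord, with some overlap between the last pair. SERPINH1 was 7.18-fold lower in skeletal muscle (-2.84, SE 0.25, adjusted p = 4.24e-09) and 15.2-fold lower on the arrays labelled umbilical cord (-3.92, SE 0.25, adjusted p = 2.02e-11) than on the arrays labelled liver.

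LOX and LOXL2 are copper-dependent amine oxidases that oxidise lysine residues, the step from which crosslinks of collagen and elastin form. LOX was well above background on 10 of 22 arrays. Its processed signals were 206, 154 and 358 on the ABW arrays labelled liver and 79.4, 111 and 310 on the LBW ones, all 6 well above background. In skeletal muscle the signals were 26.7, 5.74, 7.70 and 12.5 in ABW and 14, 5.89, 2.54 and 3.94 in LBW, with 2 and 1 arrays well above background. In labelled umbilical cord the LOX signal was 1.81 to 5.92, and 1 ABW array and 0 LBW arrays were well above background. On that 1 ABW array the 2 LOX spots differed by 2.34 in log2 units, the widest gap between spots of any of these probes. Where a LOX probe was not well above background only a bound can be given, set on each array from the lowest signal of a single spot flagged as well above background, or from the mean of the 2 LOX spots if that was higher. On the 1 ABW array named above 1 LOX spot was flagged and the mean of both lay below this floor. LOX on the arrays labelled liver was at least 13.6-fold higher than on the LBW arrays labelled umbilical cord and at least 19.5-fold higher than on all 8 arrays of that label, 1 of which measured it. Against skeletal muscle, where 3 of 8 arrays measured it, LOX was at least 12.2-fold higher on the arrays labelled liver. No p-value is given with these bounds, because LOX passed the filter only through the arrays labelled liver.

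LOXL2 was at 2.16, 1.72 and 1.68 on the ABW arrays labelled liver and at 1.32, 1.44 and 2.29 on the LBW ones. In skeletal muscle LOXL2 was at -0.25, 0.11, -0.13 and -0.30 in ABW and at -0.29, 0.15, -0.46 and -0.22 in LBW. Labelled umbilical cord gave -2.43, -2.77, -2.76 and -2.21 in ABW and -1.65, -2.24, -2.56 and -1.35 in LBW. The levels of LOXL2 did not overlap between any of the 3 tissue labels, and the share of all probes with this separation was not counted. It was 3.84-fold lower in skeletal muscle (-1.94, SE 0.20, adjusted p = 6.18e-08) and 16.1-fold lower on the arrays labelled umbilical cord (-4.01, SE 0.20, adjusted p = 5.90e-13) than on the arrays labelled liver.

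**Figure D2:**
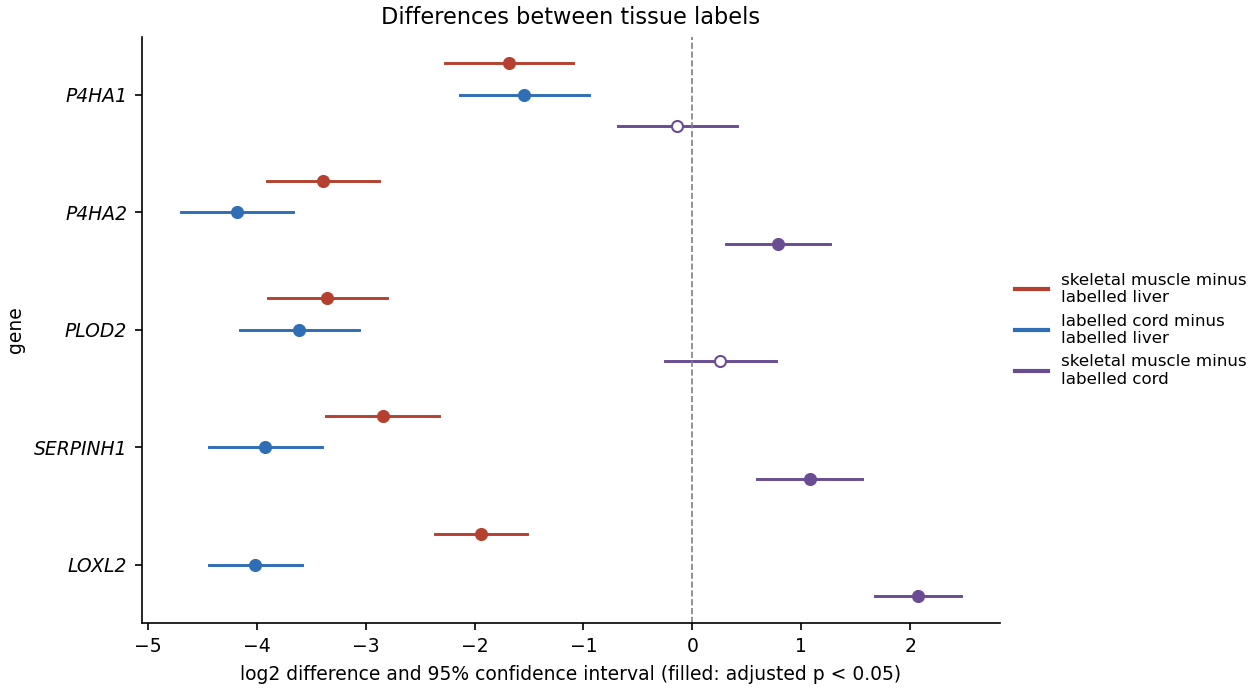
Differences between tissue labels for the 5 genes measured on every array, in log2 units with 95% confidence intervals, from the fit over the 6 groups of arrays. Filled points have an adjusted p under 0.05. All 10 differences from labelled liver lie between -4.18 and -1.54, and skeletal muscle minus labelled umbilical cord runs from -0.14 for P4HA1 to 2.07 for LOXL2, with the 2 open points at P4HA1 and PLOD2.

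Between skeletal muscle and labelled umbilical cord, 3 of 5 genes were higher in skeletal muscle at an adjusted p under 0.05, where 35.8% of all probes tested were. LOXL2 was 4.20-fold higher (2.07, SE 0.19, adjusted p = 5.52e-09). SERPINH1 was 2.11-fold higher (1.08, SE 0.23, adjusted p = 0.000356) and P4HA2 1.73-fold higher (0.79, SE 0.23, adjusted p = 0.00508). Scaling to the spike-in controls turned the last pair to -0.11 and -0.40 and left LOXL2 at 0.88 without a call (adjusted p = 0.149), and it moved the median of all probes in this comparison from 0.11 to -1.08. LOX also passed (1.56, SE 0.31, adjusted p = 0.000201), but 12 of these 16 arrays gave no signal well above background and no fold is given. With normexp background correction LOX differed by 0.22 and did not pass (adjusted p = 0.487).

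The difference between the arrays labelled liver and labelled umbilical cord was also read within slide 4, which held 2 LBW arrays labelled liver and 2 ABW arrays labelled umbilical cord. Labelled umbilical cord minus labelled liver was -1.23 for P4HA1, -4.30 for P4HA2 and -3.43 for PLOD2 within that slide. It was -4.41 for SERPINH1 and -4.46 for LOXL2, while LOX was not well above background on either of those arrays labelled umbilical cord. The 5 genes were lower on the arrays labelled umbilical cord there too, though birth weight differed between these arrays as well.

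Other genes of the same route were read from a list that held 21 further accessions on the array, of which 20 passed the filter. In skeletal muscle 15 of the 20 were lower and 2 higher than on the arrays labelled liver, with a median of -1.78, where 28.1% of all probes were lower and 37.1% higher. FKBP14, a prolyl isomerase of the endoplasmic reticulum that acts on collagen, was lower by -2.47 (SE 0.20, adjusted p = 9.33e-10). The list split in labelled umbilical cord, with 8 lower and 7 higher than labelled liver and a median of 0.24, where 31.3% of all probes were lower and 35.6% higher. FKBP14 was again lower there (-3.77, SE 0.20, adjusted p = 8.24e-13). The probe listed as NM_014244 had the largest difference of the list (-6.76, SE 0.26, adjusted p = 9.20e-15). PDIA3, a disulfide isomerase that serves many secreted proteins, was higher on the arrays labelled umbilical cord than in skeletal muscle (skeletal muscle minus labelled umbilical cord -2.99, SE 0.16, adjusted p = 1.69e-12), a comparison in which 7 of the 20 were higher and 8 lower in skeletal muscle, where 35.8% and 29.1% of all probes were.

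The substrates were read from 13 accessions of collagens and elastic fibre proteins. Of these, 12 were lower and 1 higher in skeletal muscle than on the arrays labelled liver (median -2.69), and 10 were lower and 1 higher on the arrays labelled umbilical cord (median -4.93), against the same shares of all probes as above. COL1A1, a chain of type I collagen, differed by -3.10 (SE 0.29, adjusted p = 1.02e-08) in skeletal muscle and by -6.49 (SE 0.29, adjusted p = 6.82e-14) on the arrays labelled umbilical cord. The type I collagen probe listed as NM_000089 differed by -2.94 and -5.74 in the same order. Of the 13 substrate probes, 11 had their highest mean on the arrays labelled liver.

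Birth weight was compared within each tissue label, and none of the 6 genes passed an adjusted p under 0.05 in any of them. LOX is among the 6, but only 3 of 8 muscle arrays and 1 of 8 arrays labelled umbilical cord measured it. In these labels its lack of a call does not show that it was unchanged. In skeletal muscle 0% of all probes passed, in labelled liver 0%, and in labelled umbilical cord 0.625%. At an unadjusted p under 0.05, without regard to fold, limma gave 2524, 1025 and 1531 probes, of which 2, 1 and 0 were among the 6. With a 1.5-fold difference asked for as well, 1 of 6 passed in skeletal muscle (PLOD2) where 12.2% of all probes did, 1 of 6 in labelled liver (SERPINH1) where 4.71% did, and 0 of 6 in labelled umbilical cord where 8.93% did. A share of 1 in 6 is a single gene, and at these rates nothing is read from it about the group.

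**Figure D3:**
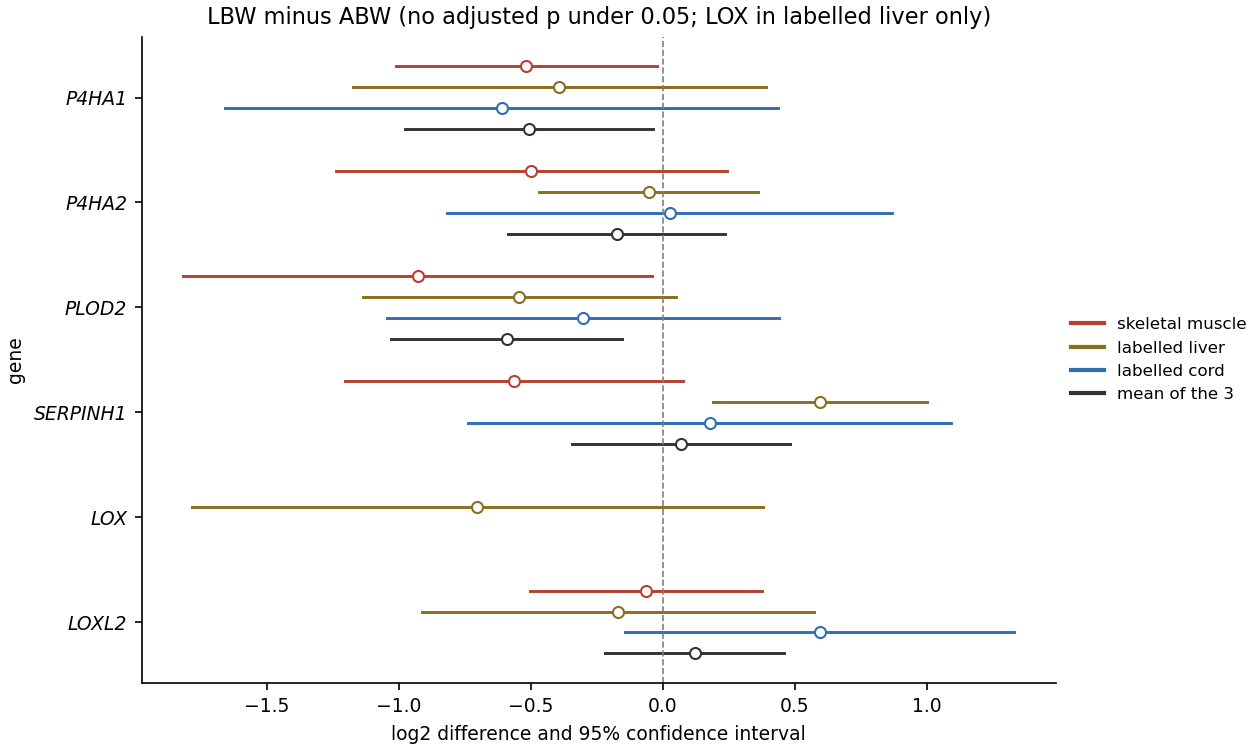
LBW minus ABW for each gene within skeletal muscle, labelled liver and labelled umbilical cord and as the mean of the 3, in log2 units with 95% confidence intervals. All points are open because no adjusted p was under 0.05. LOX is drawn for labelled liver alone, the label where all arrays measured it. In skeletal muscle all 5 points lie below 0, from -0.93 for PLOD2 to -0.06 for LOXL2, and intervals that leave out 0 are those of P4HA1 and PLOD2 in skeletal muscle, SERPINH1 in labelled liver, and P4HA1 and PLOD2 in the mean.

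In skeletal muscle the differences of the 5 genes measured on every array, LBW minus ABW, were all below 0, with a median of -0.52 against 0.07 over all probes. PLOD2 had the largest (-0.93, SE 0.39, 95% confidence interval -1.82 to -0.04), with LBW 1.90-fold lower. Its unadjusted p was 0.0424 and its adjusted p 0.319 (limma), and the two-sided exact permutation test gave p = 0.114, where 4 arrays against 4 cannot go below 0.0286. The LBW and ABW levels of PLOD2 overlapped, since 1 LBW array lay above 2 of the ABW arrays. P4HA1 differed by -0.52 (SE 0.22, 95% confidence interval -1.01 to -0.02, p = 0.0422, adjusted p = 0.319, exact permutation p = 0.0857), and 3 of its 4 LBW arrays lay below all ABW arrays. SERPINH1 differed by -0.56 (95% confidence interval -1.21 to 0.08, adjusted p = 0.405) and P4HA2 by -0.50 (-1.24 to 0.24, adjusted p = 0.527). LOXL2 differed by -0.06 (-0.50 to 0.37, adjusted p = 0.916). The sign of LOXL2 turned with array weights (0.01). LOX was measured on 2 ABW arrays and 1 LBW array, and no difference is given for it.

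The stroma and fibroblast list moved the same way in skeletal muscle: 5 of 5 probes were below 0, 4 of them at an unadjusted p under 0.05, where 3.38% of all probes were lower and 11.4% higher, and none after adjustment. FN1, a matrix glycoprotein, differed by -1.37 (SE 0.36, adjusted p = 0.135) and LUM, a proteoglycan bound to collagen fibrils, by -1.05 (SE 0.29, adjusted p = 0.150). The summed level of the list was 3.29 to 4.37 in ABW and 2.82 to 3.70 in LBW muscle. Of the substrates, 9 of 13 were below 0 (median -0.48), 4 of them and 1 above 0 at an unadjusted p under 0.05. COL1A1 differed by -1.05 (SE 0.36, adjusted p = 0.218) and the probe listed as NM_000089 by -0.93 (SE 0.36, adjusted p = 0.270). The further modifying genes were 12 below and 8 above 0 (median -0.19). FN1, LUM and COL1A1 carry symbols because the study listed them as changed in these samples, and their direction is no independent evidence. The summed level of the erythroid list was 1.78 to 5.44 in ABW and 4.11 to 5.92 in LBW muscle. The part of these lists and of the slides in the differences of the 6 genes was not tested.

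**Figure D4:**
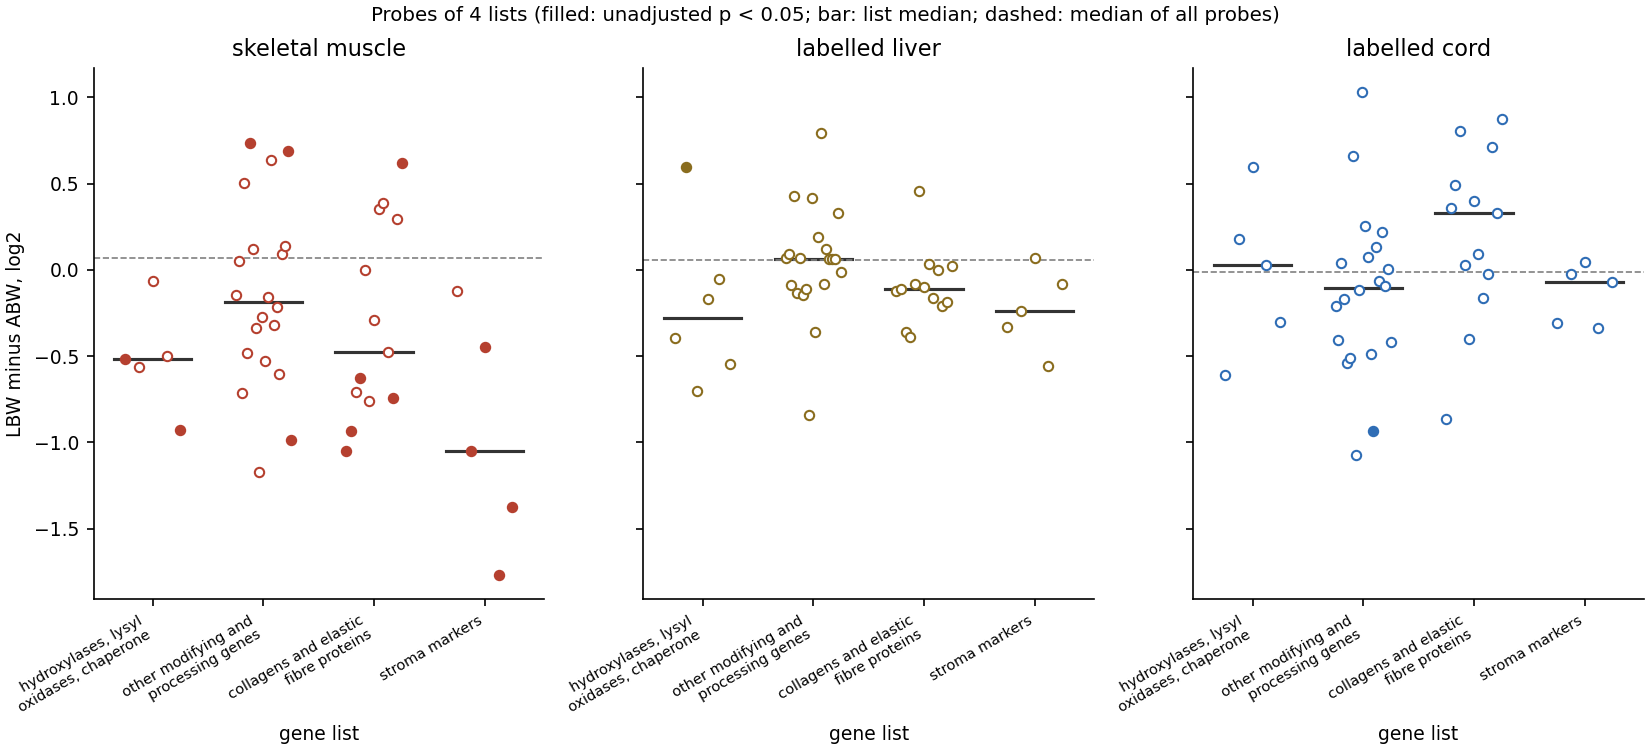
LBW minus ABW in log2 units for the probes of 4 lists in skeletal muscle, labelled liver and labelled cord. Points are probes, filled at an unadjusted p under 0.05, with LOX in labelled liver alone, bars are list medians and the dashed line is the median of all probes. In skeletal muscle the medians of the 4 lists lie between -1.05 and -0.19, and in labelled cord that of the collagens and elastic fibre proteins lies at 0.33.

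In labelled liver SERPINH1 was 1.51-fold higher in LBW (0.60, SE 0.17, 95% confidence interval 0.19 to 1.0, adjusted p = 0.783). Every LBW array lay above every ABW array, a separation in either direction that 12% of all probes showed, and the exact permutation p of 0.10 is the smallest that 3 arrays against 3 allow. With the ABW arrays and the 1 LBW array that shared slide 3 the difference was 0.69. The other 5 genes were below 0 in labelled liver and their groups overlapped. PLOD2 differed by -0.54 (95% confidence interval -1.14 to 0.05, adjusted p = 0.833), with 1 LBW array just above the lowest ABW array. LOX, well above background on all 6 arrays here, differed by -0.70 (-1.79 to 0.38, adjusted p = 0.909), P4HA1 by -0.39 (-1.17 to 0.39, adjusted p = 0.929) and LOXL2 by -0.17 (-0.91 to 0.57, adjusted p = 0.970). P4HA2 differed by -0.05 (-0.47 to 0.36, adjusted p = 0.988), the interval being within 1.5-fold in both directions. On slide 3 alone, with 1 LBW array, the differences were -0.95 for PLOD2, -1.35 for LOX and -0.55 for P4HA1. They were -0.54 for LOXL2 and 0.04 for P4HA2. The substrates had a median of -0.11 and the further modifying genes of 0.06, with none of either list at an unadjusted p under 0.05.

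In labelled umbilical cord P4HA1 differed in LBW by -0.61 (SE 0.47, 95% confidence interval -1.66 to 0.44, adjusted p = 0.716). This LBW group was the widest for P4HA1, with an SD of 1.01 against 0.35 in ABW, and the array at 0.18 lay 1 unit or more above the other 3. Without that array, LBW replicate 2, the difference was -1.09 (adjusted p = 0.437). The same array had the lowest P4HA2 and SERPINH1 levels of its group. LOXL2 differed by 0.59 (95% confidence interval -0.14 to 1.33, adjusted p = 0.616), PLOD2 by -0.30 (-1.04 to 0.44, adjusted p = 0.809), SERPINH1 by 0.18 (-0.74 to 1.09, adjusted p = 0.920) and P4HA2 by 0.03 (-0.82 to 0.87, adjusted p = 0.989). No difference is given for LOX, which 1 of these 8 arrays measured. The 20 further modifying genes were 12 below and 8 above 0, with a median of -0.11. Only FKBP14 among them had an unadjusted p under 0.05 (limma), as 1531 of all 17117 probes did. It differed by -0.93 (SE 0.33, adjusted p = 0.440). FKBP14 carries a symbol because the study listed it as changed in these samples, and its difference is no independent evidence. The substrates had a median of 0.33, with none at an unadjusted p under 0.05.

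Over the 3 tissue labels the mean of the differences was taken from the fit of all 22 arrays, and 0 of 6 genes passed an adjusted p under 0.05, where 0.888% of all probes did. At an unadjusted p under 0.05, 2 of 6 were lower in LBW, PLOD2 and P4HA1, where 5.12% of all probes were. The study's own list of genes changed with birth weight holds both, and the PLOD2 accession was taken from it. This count and the direction of both genes are thus no independent evidence. PLOD2 was lower by a mean of -0.59 (SE 0.21, 95% confidence interval -1.03 to -0.15, adjusted p = 0.222) and P4HA1 by -0.51 (SE 0.23, -0.98 to -0.04, adjusted p = 0.335). Both hydroxylases were below 0 in each of the 3 tissue labels, a pattern that 12.9% of all probes shared. PLOD2 kept a negative mean in all 33 alternative settings, from -0.87 to -0.25, and P4HA1 from -0.79 to -0.35, and within labelled umbilical cord PLOD2 turned to 0.19 with normexp background correction. The means of the other genes were -0.18 for P4HA2, 0.12 for LOXL2 and 0.07 for SERPINH1, with adjusted p from 0.743 to 0.921, and none is given for LOX.

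Whether the birth weight difference depended on the tissue label was tested as an interaction, and none of the 6 passed an adjusted p under 0.05, where 1.01% of all probes did. SERPINH1, with -0.56 in skeletal muscle, 0.60 in labelled liver and 0.18 in labelled umbilical cord, had the lowest adjusted p of the 6 (F = 2.91, adjusted p = 0.580). LOXL2 had an adjusted p of 0.685. P4HA1 and PLOD2 had an adjusted p of 0.994 and 0.910, which leaves their differences among tissue labels unresolved and does not show them equal.

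The precision of these values came from the arrays and not from the spots. The SD of the 2 spots of a probe was 0.04 to 0.09 for 5 of the genes, in log2 units, and the SD between arrays of a group was 0.37 to 0.54. For LOX the spot SD was 0.47 and the SD between arrays 0.67. Across all 22 arrays the 10 pairs of the 5 genes other than LOX correlated with r from 0.59 (P4HA1 with LOXL2) to 0.96 (P4HA2 with SERPINH1), as a description in which the points share tissue labels and slides. Once each group's mean was removed, r ran from -0.36 (P4HA1 with SERPINH1) to 0.41 (P4HA2 with SERPINH1). Within skeletal muscle P4HA2 and SERPINH1 had r = 0.80 over 8 arrays, and on the arrays labelled umbilical cord P4HA1 and P4HA2 had r = -0.70. These were the highest and lowest r of any pair without LOX within a tissue label. In the labelled umbilical cord pair, LBW replicate 2 had the highest P4HA1 level (0.18) and the lowest P4HA2 level (-1.79) of the 8 arrays. The r without that array was not computed.

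The 3 probes most like each gene over the 22 arrays were named by Pearson's r, again as a description driven by the tissue labels. For LOXL2 they were those listed as NM_015000, NM_014601 and NM_000213 with r = 0.99, 0.98 and 0.98. For SERPINH1 they were CN804935 and both probes of NM_033209, each with r = 0.98. For P4HA2 they were NM_006750 with r = 0.97, LUM with r = 0.97 and NM_006983 with r = 0.97. For LOX, not well above background on 12 of the arrays, they were NM_032558, NM_001759 and NM_002006 with r = 0.98, 0.97 and 0.97, and for PLOD2 NM_006806, NM_004105 and RASA2 with r = 0.97, 0.96 and 0.96. P4HA1 had the loosest match, NM_004384, NM_152271 and NM_203497 with r = 0.89, 0.89 and 0.87.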

How the data were processed

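RNA of the 22 neonatal samples was hybridised to single-colour Agilent rhesus arrays. The deposited intensities are, per the file headers, Feature Extraction signals after background subtraction and detrending (version 10.1.1.1, and 10.5.1.1 for slide 6), not scaled between arrays, with flags per spot. A second deposited table holds the authors' log2 values, by their methods scaled to the 75th percentile with a baseline in GeneSpring. Its columns had medians of -0.13 to 0.26, and centring the present values by probe, on the median over a tissue label, gave the same values within 0.1 for 97.8%. Tissue labels were therefore not compared in it.

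The processed signals of a probe's 2 spots were averaged, log2 transformed and reduced by the 75th percentile of the array. Probes flagged well above background in 75% or more of a group's arrays, in 1 group or more, were kept, 17117 of 20217. Groups followed the sample labels. LBW and ABW were compared within each tissue label, and tissue labels, the mean difference and the interaction in a fit of the 6 groups, with limma 3.58.1 (statmod 1.5.0, R 4.3.3) and Benjamini-Hochberg adjustment over all kept probes. Exact permutation tests used scipy 1.17.1, with Python 3.11.15, numpy 2.4.6 and pandas 2.3.3. The fits were tested on simulated data, in which 200 probes were changed by 2 log2 units with birth weight. At an adjusted p under 0.05, 140 of them were recovered in skeletal muscle, 83 in labelled liver and 144 in labelled umbilical cord. In the mean of the 3 labels 195 were recovered. A gene not called within a tissue label can thus have changed. Alternatives covered background correction (normexp), scaling to the median, by quantiles and to spike-in controls, the authors' table, the filter, the methods' tests, a shared spread, array weights, slide and replicate blocks, averaging by accession and leaving out each array.

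The genes and lists were chosen with earlier results of these data known. Every gene of the rule found on the array is named. Of the lists, genes are named at an adjusted p under 0.05, type I collagen chains always, and the 3 most alike probes by Pearson's r. FN1 and LUM in skeletal muscle, FKBP14 on the arrays labelled umbilical cord, and LIPC, TAT and CP were named after their values were seen. Symbols came from the rule or from the study's gene list, which named 11 of the listed accessions, all 11 with the symbol intended, and other probes keep their accession. Probe sequences, genome positions and the reference's gene names were not used here. Pairs of arrays of a group correlated with r from 0.94 to 0.98, and none held identical values.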

Additional observations from a re-analysis of the deposited data

Results flagged for a closer look

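P4HA2 on the ABW array labelled umbilical cord, replicate 2, was at -1.37 while the nearest of the other 3 arrays was at -0.74, a gap of 85.1% of the range of the group. It stood apart by Dixon's criterion among 24 sets of 4 arrays examined over the 6 genes, where chance alone gives about 1 in 20. Without this array the LBW minus ABW difference of P4HA2 on the arrays labelled umbilical cord was -0.14 in place of 0.03, neither passing the test. No interaction of birth weight and tissue label passed for any of the 6 genes.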

How the results depend on the processing

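Among the 8 counts of genes called at an adjusted p under 0.05, those between LBW and ABW, for the mean and for the interaction were 0 in every setting tried. All 6 genes were called between skeletal muscle and labelled liver in every setting, and at least 5 between labelled umbilical cord and labelled liver. LOX is counted here, but it passed the filter only through the arrays labelled liver, so its calls against them are no support. The count between skeletal muscle and labelled umbilical cord fell from 4, LOX among them, to 1 with scaling to the spike-in controls, which rest on 10 control probes. None of the 4 kept its call there (adjusted p from 0.149 to 0.867), and the 1 called was P4HA1, lower in skeletal muscle by -1.33 (adjusted p = 0.0269).

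Counts at unadjusted thresholds moved more. In skeletal muscle, 1 in the report, they were 0 with normexp and with the methods' t-test, 3 with scaling to the median and 5 with spike-in scaling, and 0 to 3 with single arrays left out (0 without ABW replicate 1 or 4 or LBW replicate 2 or 3, 2 without LBW replicate 1, 3 without LBW replicate 4). In labelled liver, also 1, they were 0 with normexp, spike-in scaling, the spread shared by the 6 groups and array weights, 2 with the slide as a block, and 0 to 2 with single arrays left out (0 without ABW or LBW replicate 1, 2 without LBW replicate 3). In labelled umbilical cord, 0 in the report, the shared spread gave 1, as did leaving out LBW replicate 2 or 3 (0 to 1). For the mean, 2 in the report, normexp gave 1 and spike-in scaling and array weights 0, and single arrays left out gave 1 to 2 (1 without muscle LBW replicate 2 or 3, labelled cord ABW replicate 4 or LBW replicate 1 or 4, or labelled liver ABW replicate 1 or LBW replicate 1 or 2).

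Signs of differences turned as follows, none passing the test. With spike-in scaling LBW minus ABW was 0.028 for P4HA2 in labelled liver, -0.38 for P4HA2 and -0.23 for SERPINH1 in labelled umbilical cord, and -0.21 for SERPINH1 and -0.16 for LOXL2 in the mean, and skeletal muscle minus labelled umbilical cord was -0.40 for P4HA2, -0.93 for PLOD2 and -0.11 for SERPINH1. With normexp LOX was 0.047 in skeletal muscle and 0.15 in the mean, and PLOD2 0.19 in labelled umbilical cord. With array weights LOXL2 was 0.00588 in skeletal muscle and 0.028 in labelled liver, and P4HA2 -0.0191 in labelled umbilical cord. The slide block gave 0.038 for P4HA2 in labelled liver, and the ABW arrays of slide 6 alone, a setting added after seeing the data, -0.15 for P4HA2 in labelled umbilical cord. Leaving out single arrays turned some differences, which ranged from -0.18 to 0.021 for LOXL2 in skeletal muscle, from -0.10 to 0.044 for P4HA2 and from -0.48 to 0.014 for LOXL2 in labelled liver, from -0.19 to 0.34 for P4HA2 and from -0.10 to 0.36 for SERPINH1 in labelled umbilical cord, from -0.023 to 0.14 for SERPINH1 in the mean, and from -0.26 to 0.10 for P4HA1 in skeletal muscle minus labelled umbilical cord. Without a change of sign, P4HA1 ranged from -0.68 to -0.07 and LOX from -1.15 to -0.38 in labelled liver, and PLOD2 from -0.45 to -0.05 in labelled umbilical cord. The cause was not tested in any of these.

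Replicate numbers are shared by the groups, but same-numbered arrays did not deviate together, with r from -0.22 to 0.30 over 11 pairs within tissue labels and from -0.29 to 0.38 over 20 pairs between them, so the numbers were not taken as pairs. Tissues of the same neonate, which the methods describe, could thus not be matched. With the replicate number as a block the counts of genes called stayed at 0 for birth weight and at 6, 4 and 6 between tissue labels. Signal over background limits LOX outside the arrays labelled liver.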
